A study of Mus musculus with 56 samples.

Results

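Genes of neural progenitors and early neurons were followed through a comparison of RNA amplification methods on mouse oligonucleotide arrays. The set held 41 genes, chosen by symbol, which matched 46 of 21766 probes after controls were set aside (41 of 15063 genes). Sox11 and Ncam1 had 3 probes each and Pax6 had 2, numbered here in the order of the array table. The series held 56 two-color hybridizations. In 1 kind, progenitor cells freshly picked from the mouse neocortex at embryonic stage E11.5 gave an RNA pool that was divided into 4 parts, and 2 parts were amplified by GA and 2 by SMART. The labels give 8 to 10 cells for the pool while the study's text gives another number, and no marker by which the cells were chosen is named. In another kind, OV cells, a line from the surface epithelium of the mouse ovary, gave RNA that was set against that of 3T3 fibroblasts, also from the mouse, with 4 arrays per target. Arrays 1 and 2, and arrays 3 and 4, had the dyes swapped, and the study's text describes the 4 as replicates with their dye swaps, so p-values that take them as 4 independent arrays may be too small. A target is the labeled material put on an array. It was either unamplified cDNA from 100 μg of total RNA or was amplified from 10 ng by IVTIII (3 rounds of T7 transcription), GA (global PCR of tailed cDNA), SMART (PCR after template switching) or SM37 (a modified SMART protocol), or from 10 pg by SMART or GA. In the last kind, OV RNA was hybridized against OV RNA. No treatment is named for any group, and neither line is of neural origin.

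During the growth of the cortex, SOX factors and Notch signaling keep dividing progenitors from becoming neurons. Ligands such as Dll1 on a cell activate Notch receptors on its neighbor, which turn on Hes and Hey repressors, and Id proteins bind and disable the basic helix-loop-helix factors that drive differentiation. Proneural factors such as Neurog2 oppose them and lead to cells that make neuronal tubulin, growth cone and adhesion proteins. Several of the same genes, among them Hes1, Id1, Id3, Vim and Sox9, are also used outside the nervous system.

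Each value is the log2 ratio between the dyes at a probe of 1 array. Ratios were read as Cy5 over Cy3, which is the likely direction, because the study's text gives both, and were turned to OV over 3T3 or to replica 1 over replica 2. In unamplified cDNA the direction was checked with Cdkn2a, a locus that 3T3 cells have lost, at 1.58 ± 0.11 (SD, n = 4 arrays), and with Wt1, Krt8 and Krt19, markers of the ovarian surface epithelium, at 3.65, 3.44 and 3.17. Of the 7 ovarian markers, 5 were called higher in OV and 1, Krt18, was lower at -0.75. Of 3 measured markers of mesenchyme, which fibroblasts should carry, 2 were called higher in OV. The files hold no intensities, so a level cannot be read from them, nor whether a probe lay above background, and why probes lack values is not stated. For unamplified cDNA 34 member probes (73.9%) had a value on all 4 arrays, against 59.1% of all probes. The number fell to 21 for SMART, 20 for GA at 10 pg, 16 for GA, 14 for SM37, 7 for IVTIII and 4 for SMART at 10 pg. Within a target, turned arrays correlated across all probes at r = 0.449 or more, except in SMART, where arrays 1 and 4 had r = -0.0927.

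Sequence just before the gene start is shown for 4 of the 8 genes called between OV and 3T3 in unamplified cDNA, those with an entry in the RefSeq promoter table (GRCm38.p6), so that genes higher in OV (Id3, Sox11) can be set beside genes lower in OV (Tubb3, Vim). Each stretch has 250 bases and ends at the base before the start, 5′ to 3′. Capitals mark a CCAAT box (CCAAT), a GC box (GGGCGG) or a TATA box (TATAAA), searched on both strands.
Id3, chr4:136143572-136143821, plus strand: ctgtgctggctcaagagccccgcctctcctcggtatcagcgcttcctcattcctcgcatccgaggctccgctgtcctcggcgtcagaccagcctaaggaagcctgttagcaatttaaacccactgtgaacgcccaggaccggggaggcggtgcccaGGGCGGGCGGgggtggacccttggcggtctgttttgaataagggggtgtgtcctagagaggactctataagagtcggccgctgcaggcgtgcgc
Sox11, chr12:27342719-27342968, minus strand: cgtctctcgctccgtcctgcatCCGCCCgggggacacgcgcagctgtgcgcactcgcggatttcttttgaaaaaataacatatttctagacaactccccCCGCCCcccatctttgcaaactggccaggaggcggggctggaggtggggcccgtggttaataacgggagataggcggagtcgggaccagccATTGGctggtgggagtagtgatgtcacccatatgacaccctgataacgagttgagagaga
Tubb3, chr8:123411303-123411552, plus strand: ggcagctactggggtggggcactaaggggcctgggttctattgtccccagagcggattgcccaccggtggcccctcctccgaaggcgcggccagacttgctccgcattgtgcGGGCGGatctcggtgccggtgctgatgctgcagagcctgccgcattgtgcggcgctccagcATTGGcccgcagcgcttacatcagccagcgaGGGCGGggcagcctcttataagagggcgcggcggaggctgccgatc
Vim, chr2:13574061-13574310, plus strand: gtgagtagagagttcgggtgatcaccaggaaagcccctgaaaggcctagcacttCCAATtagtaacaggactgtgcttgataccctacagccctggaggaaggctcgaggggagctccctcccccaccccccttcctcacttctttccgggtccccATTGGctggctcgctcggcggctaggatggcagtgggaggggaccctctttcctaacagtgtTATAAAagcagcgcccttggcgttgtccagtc
The stretch of Vim held 2 CCAAT boxes and a TATA box, and that of Id3 held 2 overlapping GC boxes and no CCAAT box. Among 39 entries of 29 member genes, 51.3% held a CCAAT box and 53.8% a GC box, against 33.8% and 32.7% of all 32851 stretches of this length. The E-box CANNTG, the motif that proneural factors bind, was found in 46.2% of member stretches and 66.2% of all, and TGGGAA, the motif of the Notch effector RBPJ, in 10.3% and 21.6%. These are matches of letters and not binding sites.

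On the neural stem cell arrays most of the genes had values. With GA, 36 of 46 member probes (78.3%, 33 genes) had a value on both arrays, against 53.9% of all probes. With SMART, 34 did (73.9%, 31 genes), against 50.6% of all probes. Of these, 29 had values on all 4 arrays. Sox2, Sox11 probe 1, Dll1, Numb, Neurod1, Otx2 and Dlx1 were complete only with GA, and Jag1, Hes5, Pax6 probe 2, Six3 and Stmn2 only with SMART. Prom1, Id4, Neurog1, Gli3 and Ncam1 probe 2 were complete with neither method. A value does not show expression. Markers of blood and of microglia, 3 probes each, also had values on both arrays of either method. Because both channels held parts of 1 pool, the ratios do not show whether the picked cells were progenitors.

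**Figure D1:**
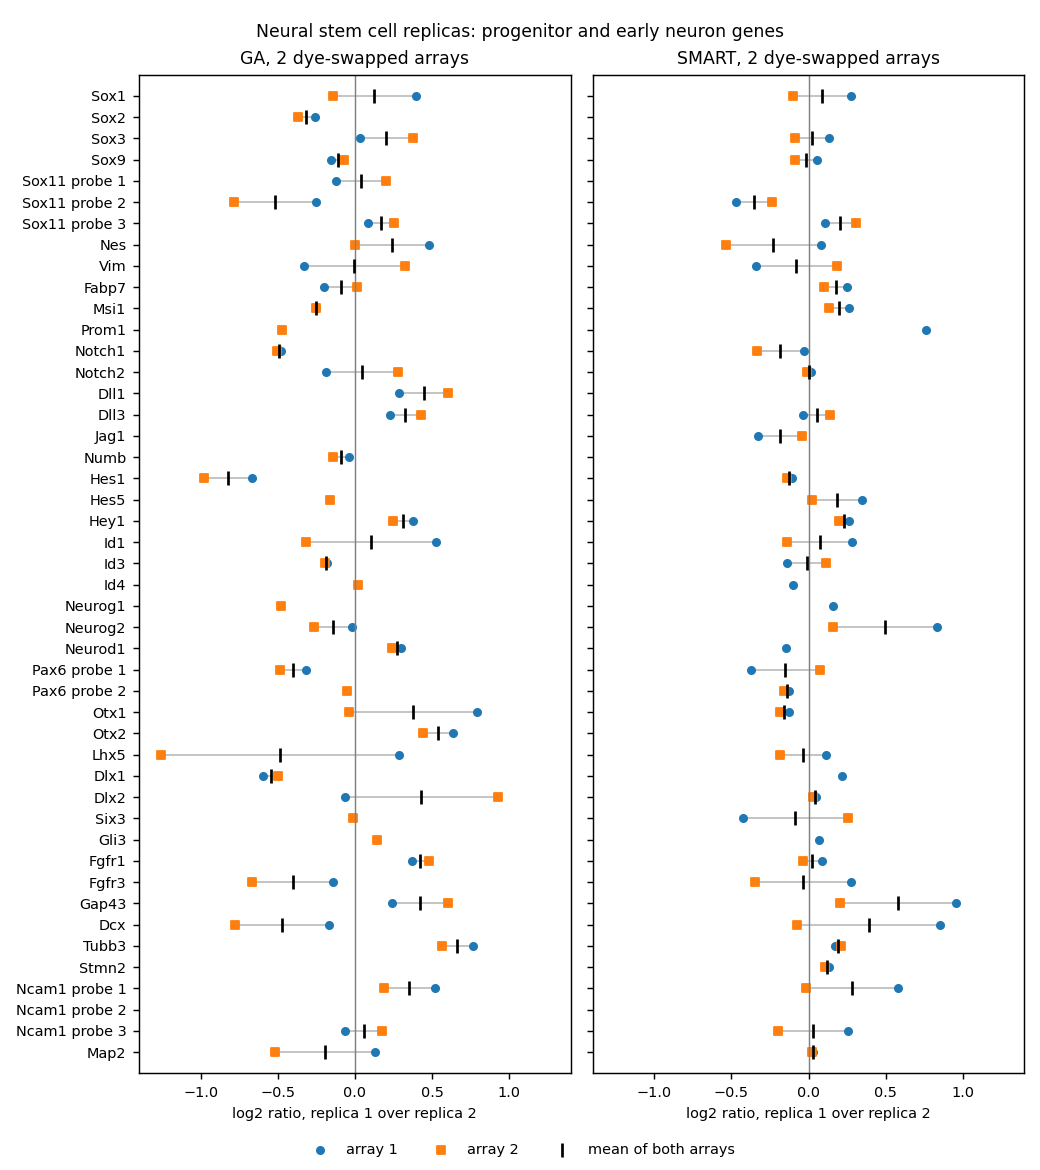
Log2 ratios of replica 1 over replica 2 (x axis) for 46 probes of progenitor and early neuron genes (y axis) on neural stem cell arrays amplified by GA (left) or SMART (right). Circles are array 1, squares array 2, and black bars the mean where both have a value: Hes1 lay at -0.83 with GA and -0.12 with SMART, and Gap43 at 0.42 and 0.58.

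The log2 ratios of the members spread more between GA replicas than between SMART replicas. The SD of the mean log2 ratio over members was 0.368 with GA and 0.202 with SMART, beside 0.352 and 0.178 over all probes. The study's text reports that SMART compresses log ratios and holds it likely that SMART replicates look less noisy for that reason. This was not tested here, and a smaller SD with SMART need not mean closer replicas. Of the 29 probes with values on all 4 arrays, 24 (82.8%) had the larger absolute mean with GA, against 67.1% of 8182 probes. With GA, 5 of 36 members had an absolute mean above 0.5, beside 15.93% of all probes. With SMART 1 of 34 did, beside 2.02% of all probes. Across members the 2 turned GA arrays had r = 0.428 and the SMART arrays r = 0.0965, beside 0.596 and -0.0163 across all probes. The probes of an array share its labeling and hybridization. Both arrays of a method held the same pair of replicas with the dyes swapped, so they repeat 1 comparison of 2 amplifications, and p-values from them cover the spread of hybridization only. The smallest p that an exact permutation test could reach with 2 arrays on either side is 0.333.

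Among Notch genes, Hes1, a repressor that keeps progenitors undifferentiated, had the largest GA ratio, at -0.67 and -0.98 on the 2 arrays (mean -0.83). With SMART its mean was -0.12. Hey1, another Notch target, was positive on all 4 arrays, with means of 0.31 in GA and 0.23 in SMART, and the ligands Dll1 (GA only) and Dll3 had GA means of 0.45 and 0.33. The receptor Notch1 was negative on all 4 arrays, with means of -0.49 and -0.18, and Notch2 had means of 0.05 and 0.00. Jag1 and Hes5 had SMART means of -0.18 and 0.19, and Numb a GA mean of -0.09. Id1 had GA arrays of opposite sign, at 0.53 and -0.32, and Id3 lay at -0.18 and -0.19. Replica numbers do not tie a GA tube to a SMART tube, so a shared sign across methods carries no meaning.

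Gap43, a growth cone protein, had the largest SMART ratio. It had values of 0.96 and 0.21 with SMART (mean 0.58) and 0.24 and 0.60 with GA (mean 0.42). Dcx, a microtubule protein of migrating neurons, had 0.85 and -0.07 with SMART and -0.17 and -0.78 with GA, so that the SMART arrays had opposite signs. Ncam1 probe 1, for a neural cell adhesion molecule, had 0.58 and -0.02 with SMART and 0.52 and 0.19 with GA. In these genes SMART array 1 was far above array 2, whereas Tubb3, the neuronal tubulin, had 0.17 and 0.21 with SMART and 0.77 and 0.56 with GA (mean 0.67). Map2, a dendritic microtubule protein, had GA values of 0.13 and -0.52, and Stmn2 had a SMART mean of 0.12.

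Neurog2, a proneural factor of the dorsal cortex, had 0.83 and 0.16 with SMART (mean 0.49) and -0.02 and -0.27 with GA. Neurod1, which acts later in the same cascade, had a GA mean of 0.27. Among regional factors, Dlx1 had -0.59 and -0.50 with GA (mean -0.55), and Otx2 0.64 and 0.44 (mean 0.54). For both the GA arrays had the same sign. Lhx5 and Dlx2 had GA arrays of opposite sign, with 0.29 and -1.26 for Lhx5 and -0.07 and 0.93 for Dlx2, the widest gaps between arrays among the members. The SMART means of both were near 0, at -0.04 and 0.04. Pax6 probe 1, for a factor of dorsal progenitors, had a GA mean of -0.40 and a SMART mean of -0.15, Otx1 had 0.38 and -0.16, and Six3 and Pax6 probe 2 had SMART means of -0.09 and -0.14.

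The 3 probes of Sox11, a factor of newborn neurons, did not give the same ratio. Probe 2 had -0.25 and -0.78 with GA and -0.47 and -0.23 with SMART, and probe 3 was positive on all 4 arrays, with means of 0.17 and 0.21. Probe 1 had a GA mean of 0.04. Sox2, which marks neural stem cells, had a GA mean of -0.31, Sox1 and Sox3 had 0.13 and 0.20, and Sox9 -0.11. With SMART, Sox1, Sox3 and Sox9 lay between -0.02 and 0.09. Proteins of progenitors had GA means of 0.24 for the intermediate filament nestin (Nes), 0.00 for Vim, -0.09 for Fabp7 and -0.26 for the RNA-binding protein Msi1, and SMART means from -0.23 (Nes) to 0.20 (Msi1). The FGF receptors Fgfr1 and Fgfr3 had GA means of 0.42 and -0.40, and SMART means of 0.03 and -0.03.

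By the study's rule, an LOD (log odds of a difference) above 0 in limma, none of the members was called between neural stem cell replicas. Over all probes 3.14% were called with GA and 0.2% with SMART. At an adjusted p under 0.05 (limma, Benjamini-Hochberg over all probes), 4 of 36 members were called with GA, 11.1% against 11.53% of all probes. These were Hes1 (adjusted p = 0.0277 from limma), Tubb3 (0.0317), Dlx1 (0.042) and Otx2 (0.048). With SMART 0 of 34 were called, beside 0.00909% of all probes. At an unadjusted p under 0.05, limma gave 16 members with GA (44.4%, against 29.9% of all probes) and 3 with SMART (8.82%, against 5.15%). The share called by the adjusted p was that of the background, and the members do not stand apart by it.

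In unamplified cDNA, Hes1, Id1, Id3, Ncam1 and Sox11 were higher in OV, and Sox9, Vim and Tubb3 were higher in 3T3. Of 34 member probes tested, 9 were called by LOD (26.5%), against 15.3% of all 12866 probes. Of these 6 were higher and 3 lower, beside 8.18% and 7.07% of all probes. At an adjusted p under 0.05, 17 were called (50%), against 46.2%, and 7 were higher and 10 lower, beside 23% and 23.2% of all probes. The median absolute log2 ratio was 0.252 over the members and 0.215 over all probes. In cell lines, fewer cells that carry an RNA and less of it per cell cannot be told apart.

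**Figure D2:**
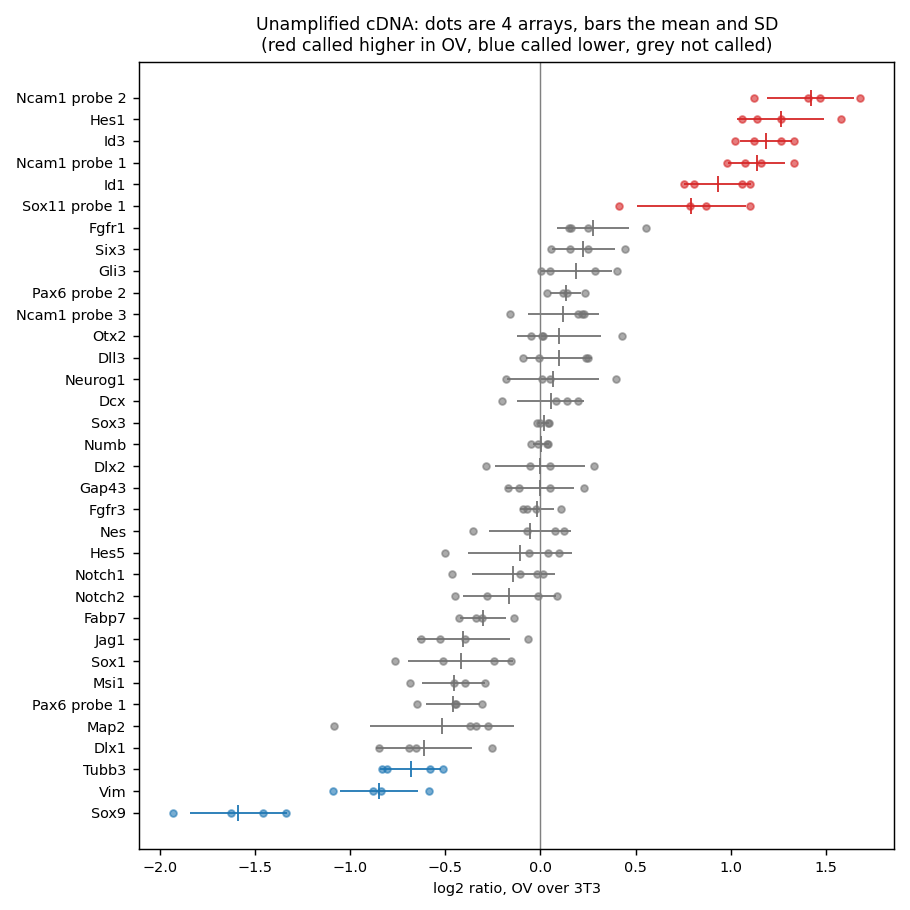
Log2 ratios of OV over 3T3 (x axis) in unamplified cDNA for the 34 member probes (y axis) with a value on 4 arrays. Dots are arrays and bars the mean ± SD: probes called higher in OV (red) run from 0.79 (Sox11 probe 1) to 1.42 (Ncam1 probe 2), and those called lower (blue) from -0.68 (Tubb3) to -1.59 (Sox9).

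Hes1 had ratios of 1.58, 1.06, 1.27 and 1.14 on the 4 arrays (mean 1.26 ± 0.23, SD, n = 4, adjusted p = 0.000294 from limma). All 4 arrays lay above 1, a difference of more than 2-fold. The other measured Notch target, Hes5, had -0.11 ± 0.27 and was not called. The receptors Notch1 and Notch2 had -0.14 ± 0.22 and -0.16 ± 0.25, Numb, an inhibitor of Notch, 0.00 ± 0.04, and the ligands Dll3 and Jag1 0.10 ± 0.18 and -0.41 ± 0.24. None of these had an LOD call, though Jag1 was lower at an adjusted p of 0.0175 (limma).

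Both measured Id genes were higher in OV. Id3 had 1.26, 1.02, 1.33 and 1.12 (mean 1.19 ± 0.14, adjusted p = 0.000168 from limma), and Id1 had 1.06, 0.81, 0.76 and 1.10 (mean 0.93 ± 0.18, adjusted p = 0.000452). None of these arrays lay near 0. The proneural factor Neurog1 had 0.07 ± 0.24, and Neurog2, Neurod1 and Id4 lacked a value on at least 1 array.

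Of the early neuron proteins, Ncam1 was higher by 2 of its 3 probes. Probe 1 had 1.33, 0.98, 1.16 and 1.08 (mean 1.14 ± 0.15, adjusted p = 0.000204 from limma), and probe 2 had 1.47, 1.12, 1.41 and 1.68 (mean 1.42 ± 0.23, adjusted p = 0.000213). Probe 3 had 0.12 ± 0.19 and was not called, so the probes of this gene disagree. Tubb3 was lower in OV, at -0.81, -0.58, -0.83 and -0.51 (mean -0.68 ± 0.16, adjusted p = 0.00106), with its LOD call lost without array 1. Map2 was lower at an adjusted p of 0.0247 (limma), without an LOD call, at -0.52 ± 0.38. Its array 3, at -1.09, was far below the others, and without it the mean was -0.33. Dcx and Gap43 had 0.05 ± 0.18 and 0.00 ± 0.18.

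Sox9, a SOX factor of progenitors, glia, cartilage and gonad, had the largest ratio in size. Its 4 arrays were at -1.93, -1.46, -1.34 and -1.63 (mean -1.59 ± 0.26, adjusted p = 0.000189 from limma). Sox11 probe 1 had 0.87, 0.41, 1.10 and 0.79 (mean 0.79 ± 0.29, adjusted p = 0.00226), and its LOD call was lost without array 1, 3 or 4 and in a fit by gene. Sox1 was lower at an adjusted p of 0.0214 (limma), without an LOD call, at -0.42 ± 0.28, and Sox3 0.02 ± 0.03. Of the progenitor proteins, Vim, an intermediate filament that fibroblasts also make, had -0.88, -1.09, -0.59 and -0.84 (mean -0.85 ± 0.21, adjusted p = 0.0008). Msi1 and Fabp7 were lower at an adjusted p of 0.00485 and 0.0132 (limma), without an LOD call, at -0.46 ± 0.17 and -0.30 ± 0.12, and Nes had -0.06 ± 0.22.

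None of the 7 probes of regional factors had an LOD call. Dlx1 had -0.61 ± 0.25 and Pax6 probe 1 -0.46 ± 0.14, both past the adjusted p threshold, whereas Pax6 probe 2 had 0.13 ± 0.08. Six3, Gli3, Otx2 and Dlx2 lay between 0.00 and 0.23. Fgfr1 was higher at an adjusted p of 0.0371 (limma), without an LOD call, at 0.28 ± 0.19, and Fgfr3 had -0.02 ± 0.09. The other 12 probes, among them those of Sox2, Dll1, Hey1, Prom1, Otx1, Lhx5 and Stmn2 and Sox11 probes 2 and 3, did not have 4 values and were not tested.

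The same pathways were followed in 7 lists of other genes (79 genes, 71 on the array), chosen by their known roles. Of 63 probes tested in unamplified cDNA, 9 were called higher and 4 lower by LOD (20.6%, against 15.3% of all probes). Sox4, a relative of Sox11, was higher at 2.83, 1.99, 2.35 and 1.75 (mean 2.23). Fgf2, a growth factor used to expand progenitors, was higher at 1.76, 0.82, 2.26 and 2.04 (mean 1.72). The presenilin Psen2 and the Notch ligand Jag2 were higher at 0.73 and 0.71. Lower in OV were Rbpj, the factor through which Notch acts on DNA, at -1.77, -1.29, -1.82 and -1.73 (mean -1.65), Id2 at -1.30, and the basic helix-loop-helix partners Tcf4 and Tcf3 at -1.10 and -0.55. Id2 thus lay opposite to Id1 and Id3, and Rbpj opposite to Hes1. In 13 probes of the Notch list, 4 were higher and 1 was lower, and in 11 of the SOX list 3 were higher and 0 lower. None of 9 probes of cortical and regional factors or of 11 of neuron and glial proteins was called. At an adjusted p under 0.05, the lists held 16 higher and 18 lower probes, 54% of those tested, against 46.2% of all probes.

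Amplified targets called few members. By LOD, SM37 called 4 of 14 (28.6%, against 14.1% of all probes), SMART 3 of 21 (14.3%, against 3.33%) and SMART at 10 pg 1 of 4, Id3 (25.0%, against 8.93%). With dye-swap pairs as blocks SMART at 10 pg called 3 of 4. The estimated correlation within pairs was negative there (-0.27), which makes that fit less strict. It thus gives no guard against p-values that are too small. IVTIII, GA and GA at 10 pg called 0 of 7, 0 of 16 and 0 of 20, against 22%, 8.06% and 5.18% of all probes. At an adjusted p under 0.05 limma gave 2, 6 and 1 members in these targets (28.6%, 37.5% and 5%), beside 55.5%, 27.4% and 15.3% of all probes. At an unadjusted p under 0.05 it gave 2, 9 and 8 members, and the share of all probes at that threshold was not counted. By the adjusted p, SMART called 4, SM37 10 and SMART at 10 pg 3, beside 6.48%, 44.6% and 31.1%. Probes without 4 values, which differ between targets, do not enter these counts.

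**Figure D3:**
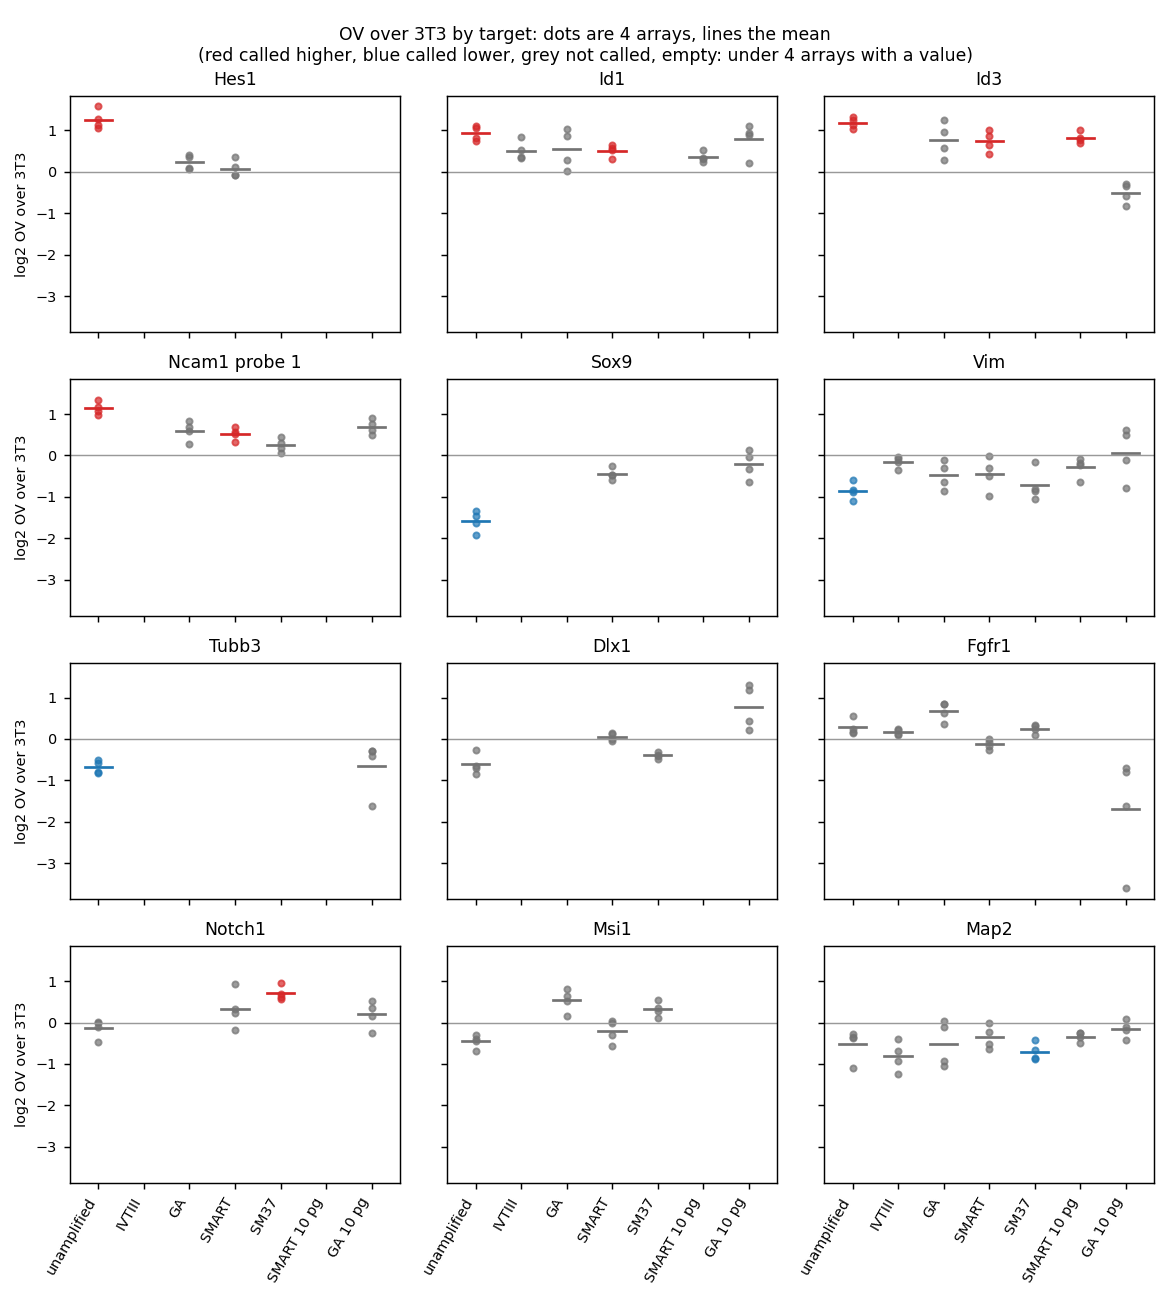
Log2 ratios of OV over 3T3 (y axis) of 12 member probes in unamplified cDNA and 6 amplified targets (x axis; 10 ng unless 10 pg is given). Dots are arrays, lines means, red and blue an LOD call: Id1 stays above 0 in every target shown, and Id3 does so except in GA at 10 pg, where it lies at -0.51.

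Id3 was called higher in OV in 2 amplified targets and Id1 in 1. Id1 was positive on all 4 arrays of the 5 amplified targets that measured it, with means from 0.35 in SMART at 10 pg to 0.79 in GA at 10 pg. In SMART it had 0.30, 0.58, 0.64 and 0.52 (adjusted p = 0.0145 from limma) and was called. Id3 was called in SMART, at 0.43, 0.88, 1.01 and 0.64 (adjusted p = 0.00774), and in SMART at 10 pg, at 0.76, 1.02, 0.70 and 0.83 (adjusted p = 0.000176). The third call of SMART was Ncam1 probe 1, at 0.33, 0.51, 0.70 and 0.56 (adjusted p = 0.0136). Without array 2 or array 3, SMART called 0 members, and without array 4 it called 1. The LOD call of Ncam1 probe 1 was also lost in a fit by gene.

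SM37 called Notch1 (0.71 ± 0.17), Dll3 (0.68 ± 0.10) and Six3 (0.71 ± 0.26) higher and Map2 (-0.70 ± 0.21) lower in OV, with adjusted p from 0.000862 to 0.00223 (limma). The arrays of Notch1 lay between 0.57 and 0.96, those of Dll3 between 0.57 and 0.77, those of Six3 between 0.39 and 0.98 and those of Map2 between -0.87 and -0.43, so none reached 0. None of these 4 had an LOD call in unamplified cDNA, though Map2 was lower there too at an adjusted p of 0.0247 (limma). In the study's own counts, most SM37 calls over all probes were not called in unamplified cDNA either. The counts fell to 2 without array 2, 3 or 4. Map2 had a negative mean in all 7 targets, from -0.81 in IVTIII to -0.16 in GA at 10 pg.

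Each amplified target was then set against unamplified cDNA in 1 limma fit, which is a test of the difference itself. At an adjusted p under 0.05, 2 of 7 members differed in IVTIII (28.6%, against 47.5% of all probes), 3 of 15 in GA (20.0%, against 20.7%), 7 of 20 in SMART (35.0%, against 17%), 6 of 14 in SM37 (42.9%, against 38.3%), 3 of 4 in SMART at 10 pg (75.0%, against 34.8%) and 6 of 18 in GA at 10 pg (33.3%, against 34.6%). All 6 tests share the 4 unamplified arrays. In SMART, all 7 ratios that differed were smaller in size than in unamplified cDNA. The SD of the mean ratio over all probes was also smaller, at 0.248 in SMART and 0.525 in unamplified cDNA. The study's text reports that SMART compresses ratios in general. The share of all differing probes that were smaller in size was not counted. The number of members that differed in SMART was 4 with the hybridization number as a block, 3 with arrays scaled to a common spread and 4 without array 2. In SMART at 10 pg it was 1 with arrays scaled. In GA it was 5 without array 1, and in IVTIII 1 without array 1, 3 or 4. Shares of all probes under these alternatives are not given here. Taking dye-swap pairs into account, which was chosen after seeing the data, lowered several counts. With the pairs as random blocks, 2 differed in IVTIII, 2 in GA, 7 in SMART, 6 in SM37, 3 in SMART at 10 pg and 3 in GA at 10 pg. Over all probes 45.1%, 12%, 18%, 32.4%, 38.2% and 22.4% differed in that fit, in the same order. The estimated correlation within pairs was negative in SMART (-0.0351) and SMART at 10 pg (-0.104), where blocks do not make the fit stricter. With each pair averaged first, so that a target enters with 2 values, 1 differed in IVTIII (Vim), 0 in GA, 4 in SMART (Hes1, Sox9, Dlx1 and Ncam1 probe 1), 5 in SM37 (all but Six3), 3 in SMART at 10 pg and 1 in GA at 10 pg (Id3). By pair means 0.291% of all probes were called in GA and 9.34% in GA at 10 pg. The shares were 34% in IVTIII, 14.4% in SMART, 21.7% in SM37 and 31% in SMART at 10 pg.

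Hes1 had smaller ratios in GA and SMART than in unamplified cDNA. In GA it had 0.41, 0.35, 0.07 and 0.09, which was -1.03 ± 0.15 (SE) from unamplified cDNA (adjusted p = 0.00195 from limma). In SMART it had -0.08, 0.36, 0.12 and -0.08, a difference of -1.18 ± 0.15 (adjusted p = 0.000381). No array of either target reached the lowest unamplified array, at 1.06. On means of dye-swap pairs the difference in GA was not called, while that in SMART was. Hes1 lacked 4 values in IVTIII, SM37 and both 10 pg targets.

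Sox9 had -0.25, -0.48, -0.47 and -0.58 in SMART, 1.15 ± 0.14 (SE) above unamplified cDNA (adjusted p = 0.00037 from limma). Dlx1 had -0.05, 0.12, -0.01 and 0.13 in SMART, a difference of 0.66 ± 0.13 (adjusted p = 0.00645). Both ratios moved toward 0, and Sox9 stayed negative on every array. Vim in IVTIII had -0.09, -0.05, -0.15 and -0.35, which was 0.69 ± 0.13 (SE) above unamplified cDNA (adjusted p = 0.00134), and Id1 there had 0.53, 0.84, 0.36 and 0.33, a difference of -0.42 ± 0.14 (adjusted p = 0.0305).

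Msi1 changed sign in GA and SM37. It had 0.53, 0.82, 0.64 and 0.15 in GA and 0.34, 0.29, 0.53 and 0.12 in SM37, while all 4 unamplified arrays lay between -0.69 and -0.29. The differences were 0.99 ± 0.16 (SE, adjusted p = 0.00306 from limma) and 0.78 ± 0.13 (adjusted p = 0.000975). By means of dye-swap pairs the difference in GA was not called. Between replicas of OV RNA alone, Msi1 had -0.72 and -0.36 in SM37 and 0.37 and -0.79 in GA at 10 ng. In SM37 the replica mean, at -0.54, was larger in size than the mean of 0.32 between the lines. In GA the 2 replica arrays had opposite signs, while all 4 arrays between the lines were positive. Notch1 in SM37 had 0.57, 0.96, 0.69 and 0.62, 0.85 ± 0.14 above unamplified cDNA (adjusted p = 0.000883). Ncam1 probe 1 was positive in 4 amplified targets, at 0.68, 0.59, 0.29 and 0.83 in GA and 0.06, 0.44, 0.19 and 0.29 in SM37, with differences of -0.54 ± 0.14 (adjusted p = 0.0263) and -0.89 ± 0.12 (adjusted p = 0.000365). In GA that call was lost without array 3, with the hybridization number as a block and with dye-swap pairs as blocks.

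At 10 pg the methods parted for Id3. In SMART, Id3 differed from unamplified cDNA by -0.36 ± 0.10 (SE, adjusted p = 0.0202 from limma), a call lost without array 1 or 3, with the block and with scaled arrays. In GA it was negative on all 4 arrays, at -0.82, -0.30, -0.33 and -0.57, a difference of -1.69 ± 0.18 (SE) from unamplified cDNA (adjusted p = 0.000196). The difference between SMART and GA was not tested. Id1 and Vim in SMART at 10 pg differed by -0.58 ± 0.11 (adjusted p = 0.00251) and 0.57 ± 0.14 (adjusted p = 0.0109), with Id1 at 0.34, 0.53, 0.32 and 0.23 and Vim at -0.07, -0.65, -0.22 and -0.18.

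GA at 10 pg gave the largest single values of the set. Fgfr1 had -3.60, -1.62, -0.69 and -0.80, a difference of -1.96 ± 0.56 (SE) from unamplified cDNA (adjusted p = 0.0255 from limma), although in GA at 10 ng it was positive at 0.84, 0.84, 0.37 and 0.62. Dlx1 had 0.44, 0.21, 1.17 and 1.30, 1.39 ± 0.28 above unamplified cDNA (adjusted p = 0.00476). Gap43 had 0.22, 0.21, 2.57 and 2.28, so that arrays 3 and 4 lay far above arrays 1 and 2, and Gli3 had -0.05, -0.52, -2.72 and -2.02. Neither of these was called, with adjusted p of 0.114 and 0.106 for the ratio itself. On these arrays the estimated correlation within dye-swap pairs was 0.46, and with the pairs as blocks the differences of Fgfr1, Vim and Sox1 were no longer called. By pair means those of Dlx1 and Sox9 were not called either.

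When OV RNA was hybridized against OV RNA, the spread of the members differed between methods and amounts and was widest in GA at 10 pg. Here both channels hold the same RNA, so each ratio holds the difference between 2 preparations and any effect of dye or hybridization. Over members, the SD of the mean log2 ratio was 0.127 in SMART at 10 ng (21 probes), 0.0773 at 1 ng (39), 0.154 at 100 pg (18) and 0.239 at 10 pg (15). In GA it was 0.317 at 10 ng (25 probes), 0.185 at 1 ng (12), 0.275 at 100 pg (28) and 0.597 at 10 pg (38). From 1 ng through 100 pg to 10 pg the SD rose at each step in both methods, whereas at 10 ng it lay above that at 1 ng. The study's text describes other dilution steps for 10 ng than for the smaller amounts, and their effect was not tested. The probes with values differ between amounts, and the limit given above on comparing SMART with GA holds here too. Over all probes these SDs ran from 0.0717 to 0.318 in SMART and from 0.22 to 0.602 in GA. In the labels, 100 pg is the described amount for both SMART arrays whose title says 1 ng, and the title was followed. The SD was 0.152 for 37 probes on the 1 array of unamplified cDNA, 0.114 for 17 probes in IVTIII and 0.297 for 7 in SM37. Over all probes it was 0.1306, 0.3035 and 0.3614, so the 17 members in IVTIII spread less than all probes there.

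**Figure D4:**
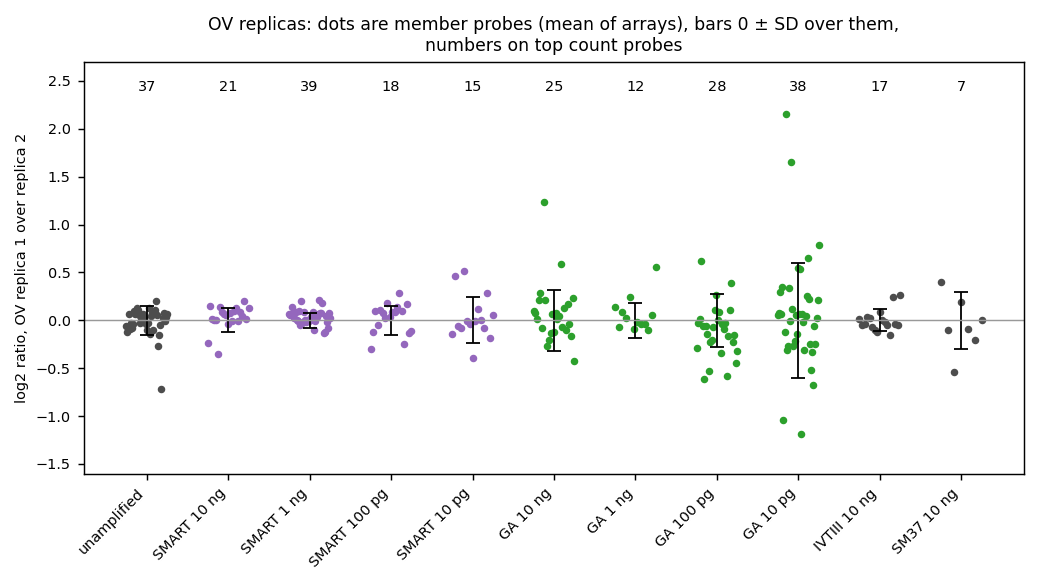
Log2 ratios of OV replica 1 over replica 2 (y axis) by target and amount of RNA (x axis). Dots are member probes (mean of 2 arrays, 1 array for unamplified cDNA) with their number on top, bars 0 ± SD over them: the GA replicas at 10 pg spread most, up to 2.15 for Gap43.

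The 2 turned arrays correlated below 0 across all probes in SMART at 10 ng and 1 ng (r = -0.202 and -0.31) and in GA at 10 ng (r = -0.234). In GA at 10 ng the SD over all probes was 0.248 with the ratios turned and 0.313 without. Gap43 differed most, with 2.45 and 1.86 between GA replicas from 10 pg of OV RNA. Id1 had 1.72 and 1.58 there, 1.70 and 0.77 at 10 ng of GA, and 1.04 and -0.01 in SMART at 10 pg. Neurog1 had -1.09 and -1.28 in GA at 10 pg. In these 3 members, picked for their large ratios there, the replica means in GA at 10 pg were 2.15, 1.65 and -1.18, beside OV over 3T3 means of 1.32 for Gap43, 0.79 for Id1 and -0.52 for Neurog1 in that target. In GA, Id1 had -0.45 and -0.60 at 100 pg and -0.10 and 0.16 at 1 ng. In SMART the largest member ratios were -0.35 for Id3 at 10 ng, 0.21 for Otx2 at 1 ng, -0.30 for Dcx at 100 pg and 0.51 for Id1 at 10 pg. In SM37 the largest were -0.54 for Msi1 and 0.40 for Dll3. On the unamplified array the largest was -0.72 for Sox11 probe 3, and in self-self hybridizations, where both channels held 1 target, the largest was -0.49 for Dlx2.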

How the data were processed

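The authors scanned the arrays on an Axon scanner, extracted features with GenePix Pro, subtracted the background, and deposited log2 ratios of Cy5 to Cy3 that limma had adjusted array by array with print-tip lowess. The version of limma and a genome build are not given in the sources used here. Of 21997 probes, 231 controls were left out, and the platform annotation gives 16632 of the remaining probes a single symbol, 139 more than 1 and 4995 none. Signs were turned by the dyes named in the labels. Where labels disagree (1 IVTIII array, 1 GA array), the description or the title was followed. The members and gene lists were chosen with earlier results of these data known.

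For OV against 3T3, limma 3.58.1 in R 4.3.3 was fitted to probes with a value on all 4 arrays (lmFit, eBayes, prior proportion 0.01), and an LOD above 0 was a call. P-values were adjusted by Benjamini-Hochberg over all probes. Each amplified target was tested against unamplified cDNA at an adjusted p under 0.05. Nothing in the labels says that arrays of a target came from separate cultures, so p-values measure only the spread between these arrays, which may be technical. No file gives depth or intensity, and the number of arrays limits the precision. Hybridization numbers did not pair arrays between targets: deviations of same-numbered arrays had r from -0.2 to 0.123. The fits were tested on simulated data. Alternatives covered missing values, thresholds, genes in place of probes, robust variance, a dye term, scaling, blocks and single arrays. Differences from unamplified cDNA were also fitted with dye-swap pairs as random blocks (duplicateCorrelation) and on pair means, both chosen after seeing the data. Per-array values are given for members called in unamplified cDNA, the 5 largest per neural stem cell method, the 3 that differ most per amplified target, and pathway genes called in unamplified cDNA, up to 4 in each direction. Any other gene given by array was picked with its values known. The plots were made in Python 3.11.15 (matplotlib 3.10.9).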

Additional observations from a re-analysis of the deposited data

Results flagged for a closer look

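Of 116 sets of 4 arrays (a member probe in a target), 6 (5.17%) had 1 array far from the other 3 by Dixon's test, which chance gives in about 1 of 20. In unamplified cDNA these were Otx2 on array 4 (0.43, others from -0.05 to 0.01), Map2 on array 3 (-1.09, others from -0.37 to -0.28) and Ncam1 probe 3 on array 2 (-0.16, others from 0.20 to 0.23). In IVTIII they were Six3 on array 2 (0.20, others from -0.18 to -0.14) and Ncam1 probe 3 on array 3 (0.87, others from -0.18 to -0.04). In GA at 10 pg Tubb3 on array 3 had -1.61 (others from -0.42 to -0.28), and without it the mean was -0.33.

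Of 78 tests of an amplified target against unamplified cDNA, 27 passed an adjusted p of 0.05 in limma. Differences (amplified minus unamplified, log2) were -0.42 for Id1 and 0.69 for Vim in IVTIII. In GA they were -1.03 for Hes1, -0.54 for Ncam1 probe 1 and 0.99 for Msi1. In SMART they were 0.66 for Dlx1, 1.15 for Sox9, -1.18 for Hes1, -0.42 for Id1, -0.61 for Ncam1 probe 1, -0.40 for Fgfr1 and -0.44 for Id3. In SM37 they were 0.49 for Six3, -0.89 for Ncam1 probe 1, 0.85 for Notch1, 0.63 for Notch2, 0.78 for Msi1 and 0.59 for Dll3. At 10 pg they were -0.58 for Id1, 0.57 for Vim and -0.36 for Id3 in SMART, and 0.80 for Sox1, 1.39 for Dlx1, 1.37 for Sox9, 0.90 for Vim, -1.96 for Fgfr1 and -1.69 for Id3 in GA.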

How the results depend on the processing

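Of 17 calls of members between OV and 3T3, 10 held under every alternative tried, and of 27 differences from unamplified cDNA 11 did. For the calls between OV and 3T3, the adjusted p threshold was looser than the LOD, so no call could fail it. The fit by gene left the ratios of genes with 1 probe unchanged. No called value changed sign. At an adjusted p under 0.05 in place of the LOD, the counts of called member probes were 17 in unamplified cDNA, 2 in IVTIII, 6 in GA, 10 in SM37, 3 in SMART at 10 pg and 1 in GA at 10 pg. Over all probes the shares were 46.2%, 55.5%, 27.4%, 44.6%, 31.1% and 15.3%, in the same order. With dye-swap pairs as blocks SMART at 10 pg called 3, in a fit made less strict by a negative correlation within pairs (-0.27). Leaving out each array in turn, the counts ran from 7 to 10 in unamplified cDNA, 0 to 1 in IVTIII, 0 to 4 in SMART and 2 to 5 in SM37, and stayed at 0 in GA and GA at 10 pg and at 1 in SMART at 10 pg. The calls over all probes moved as well. In unamplified cDNA they went from 1963 to 968, 2026, 1281 and 1154 without arrays 1 to 4. In IVTIII they went from 1010 to 828, 649, 773 and 795. Counts of members that differ from unamplified cDNA then ran from 1 to 3 in IVTIII, 2 to 5 in GA, 4 to 6 in SMART, 5 to 6 in SM37, 2 to 3 in SMART at 10 pg and 5 to 9 in GA at 10 pg. With values on at least 3 arrays of each target, 5 members differed in GA and 10 in GA at 10 pg, with more probes tested. With arrays scaled, 3 differed in SMART and 1 in SMART at 10 pg. With the hybridization number as a replicate block, 4 differed in SMART. Shares of all probes are not set beside the counts for these settings. For arrays left out, calls over all probes are given only for unamplified cDNA and IVTIII between OV and 3T3. The other counts do not show whether the members moved more than all probes. With dye-swap pairs as random blocks, chosen after seeing the data, 3 differed in GA at 10 pg, beside 22.4% of all probes. On means of those pairs, chosen likewise, 1 differed in IVTIII, 0 in GA, 4 in SMART and 1 in GA at 10 pg, with 2 values per target in place of 4. Over all probes 34%, 0.291%, 14.4% and 9.34% differed by these means, in the same order. The cause of the other changes was not tested.

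The SD over members between neural stem cell replicas was 0.466 on GA array 2 alone and 0.333 on SMART array 1 alone. It was 0.238 with GA ratios not turned, where the turned ratios partly cancel. Between OV replicas the median absolute deviation was 0.217 in GA at 10 ng, 0.223 at 100 pg, 0.413 at 10 pg, 0.0782 in IVTIII, 0.163 in SM37, and in SMART 0.0823 at 10 ng, 0.0653 at 1 ng and 0.114 at 10 pg. On the 7 members with a value on every array of both methods the SD was 0.545 in GA and 0.171 in SMART at 10 ng. The neural pool gave 1 RNA, and the labels do not say how many RNA preparations each line gave. No intensities were at hand to tell dim probes from bright ones.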
